A study of Mus musculus with 9 samples.

Results

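The genes described here are 43 genes of the connecting cilium and of intraflagellar transport (IFT), of 31829 genes on the array. They were chosen by name, as every probe that is not a control and whose gene name is on a list of cilium genes. This rule uses no expression value, but the list was drawn up with earlier results of these data known. The part of that choice in the shares given below was not tested. All 43 were found, with 60 probes in all, and 28 of them had a single probe. Expression was measured in the choroid (CH), the retinal pigment epithelium (RPE) and the photoreceptors (PR) of female C57BL/6 mice (of a J substrain, per the methods of the study), with 3 samples per tissue and 9 arrays in all. The sample labels give an age of 6 months with a range of 2 weeks, and the methods of the study give a younger age. The mice were healthy and no treatment is named, and each sample was cut from 1 whole eye by laser dissection, from thicker sections for the PR than for the RPE and the CH. On each array the tissue RNA was in the Cy5 channel and a common reference, RNA of mouse choroid with RPE, was in the Cy3 channel, and no dyes were swapped. A value is therefore a log2 ratio of Cy5 to Cy3 within an array. The arrays were normalized by loess, so that a ratio of 0 marks the typical spot of an array, not an equal amount of RNA. The samples are fractions of tissue, so that fewer cells of a type and less RNA per cell cannot be told apart in any of the comparisons. Whether samples with the same number came from the same mouse is not given in the sources used here, so that the p-values measure the spread between these samples.

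The outer segment of a rod or cone is a modified primary cilium, and everything it is made of passes through a narrow neck, the connecting cilium, which corresponds to the transition zone of other cilia. IFT trains carry cargo along the axoneme, driven outwards by kinesin-2 motors with the IFT-B complex and back by cytoplasmic dynein with the IFT-A complex. The BBSome is a cargo adaptor that rides on these trains and removes membrane proteins from the outer segment. Mutations in many of these genes cause retinal degeneration, alone or as part of Bardet-Biedl, Joubert or nephronophthisis syndromes.

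The arrays separated the PR from the other tissues. All 11 rod markers and all 8 cone markers were called higher in the PR than the RPE, and 9 of 10 RPE markers and all 7 pigment cell markers were called lower. Of 10 markers of the inner retina, 3 were called higher in the PR than the RPE and 1, Rbpms, lower. The higher ones were Grm6, Pcp2 and Prkca, which mark bipolar cells, and their part in the results on the cilium genes was not tested. Between 63.1% and 91.8% of the spots were well above background in Cy5, and RPE 2 had the highest share. In Cy5 the PR arrays had median signals from 617 to 963, below those of the other arrays, which were from 991 to 1534. No probe of a cilium gene was saturated on any array. The brightest probe of each cilium gene was well above background on all 9 arrays, except that of Ift140 on 1 CH and 1 RPE array. Slide 1 held PR 1 and PR 3, slide 2 held the CH and RPE arrays with the numbers 1 and 3, and slide 3 held the arrays with the number 2 of all tissues.

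Many ciliary genes carry an X-box in their promoter, the binding motif of the RFX transcription factors. Some of the members that hold one are printed here as a description. The choice by name used no promoter sequence. Since the list holds ciliary genes, a higher share of the motif in it is no independent support. RefSeq promoters of 300 bases, from 250 bases before to 50 after the gene start (GRCm38.p6), were found for 39 of the 43 genes, with 46 promoters in all. The motif was searched on both strands as its 2 arms of 6 bases with up to 3 bases between them. It was matched in full in 4 of 46 promoters (8.7%), against 1.53% of all 32851 promoters. The capitals mark the motif in these 4 promoters, which are printed 5′ to 3′ on the strand of the gene:
Ahi1: agtctgaGTTACCTAGGCAACagcggca
Bbs1: tgagctgGTTGCCAAGGCGACgcctggg
Ift57: ccctgcgGTTGCCTGGTAACggtgggg
Kif17: cacggagGTTGCCCAGCAACggcgaac
These windows were Ahi1 at chr10:20952561-20952588 (plus strand), Bbs1 at chr19:4906606-4906633 (minus strand), Ift57 at chr16:49699227-49699253 (plus strand) and Kif17 at chr4:138262171-138262197 (plus strand). With up to 1 mismatch, the motif was in 18 of 46 promoters (39.1%) of 16 genes, against 11.3% of all promoters. Of the full matches, Bbs1 was called higher in the PR than the RPE, and Ahi1, Ift57 and Kif17 were not. With 1 mismatch, Cetn2, Dync2h1, Ift88, Nphp4 and Spata7 were not called against the RPE, and Bbs4 was. The other members with 1 mismatch were also called higher in the PR and are the following, with the same use of capitals:
Arl13b: cgctccaGTTGCCTAGTTACcagagcc
Arl6: aaccccgGAGGCCAGCAACcagcgat
Bbs7: cgccccgGTTGCCTTGGAAACcggccag
Cep290: gagtggtGTCGCCTAGCAGCcggcgcc
Lca5: gagtccaGTAACCAATGGGAACtggggga
Mns1: tttggcgGTTGCCGGGACACagcttaa
These windows were Arl13b at chr16:62847202-62847228 (minus strand), Arl6 at chr16:59639452-59639477 (minus strand), Bbs7 at chr3:36613490-36613517 (minus strand), Cep290 at chr10:100487582-100487608 (plus strand), Lca5 at chr9:83441138-83441166 (minus strand) and Mns1 at chr9:72438537-72438563 (plus strand). Counted from the gene start, the motif began upstream at base -181 in Arl13b, -121 in Bbs7, -73 in Kif17, -61 in Arl6, -60 in Ift57 and -32 in Lca5. It began downstream at base 2 in Bbs1, 8 in Cep290, 16 in Mns1 and 22 in Ahi1. The shorter motif GTTGCC, which overlaps an arm of the X-box, was in 39.1% of the member promoters and in 12.5% of all promoters. The GC content of the member promoters had a median of 59.8% and that of all promoters 52.7%, and its part in these shares was not tested. The motif TAATCC, which is bound by the photoreceptor factor CRX, was in 6.52% of the member promoters and in 7.06% of all. CACGTG was in 4.35% against 7.15%, and TGANTCA in 8.7% against 7.81%. These shares are 3, 2 and 4 of the 46 promoters. X-box matches with up to 1 mismatch were in 12 of 18 promoters of motile cilium genes (66.7%) and in 0 of 8 promoters of cytoplasmic transport motors.

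The first comparison asked which of these genes are higher in the PR than the adjacent RPE. A gene was called at a fold change (FC) above 2.5 and a Benjamini-Hochberg (B-H) adjusted p-value below 0.01 in limma, at its brightest probe. Of the 43 genes, 17 (39.5%) were called higher in the PR than the RPE and 0 were called lower. Over all genes, 5.19% were called higher and 10.9% lower. The median log2 difference of the 43 genes was 1.00 and that of all genes 0.00, and 37 of 43 (86%) differences were above 0 against 50.5% over all genes. At an adjusted p-value below 0.05 and with no FC, 34 of the 43 genes were higher in the PR and 3 lower, with 25.1% and 25.2% over all genes. The counts of the 43 genes were the same at an unadjusted p-value below 0.05, where all genes had 27.9% and 27.4%. The 17 called genes were the 7 BBSome subunits on the list, Bbs12, Arl6, Ift81, Cep290, Rpgr, Rpgrip1, Lca5, Arl13b, Mak and Mns1. A further 17 genes were higher at the weaker threshold without reaching the FC.

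**Figure D1:**
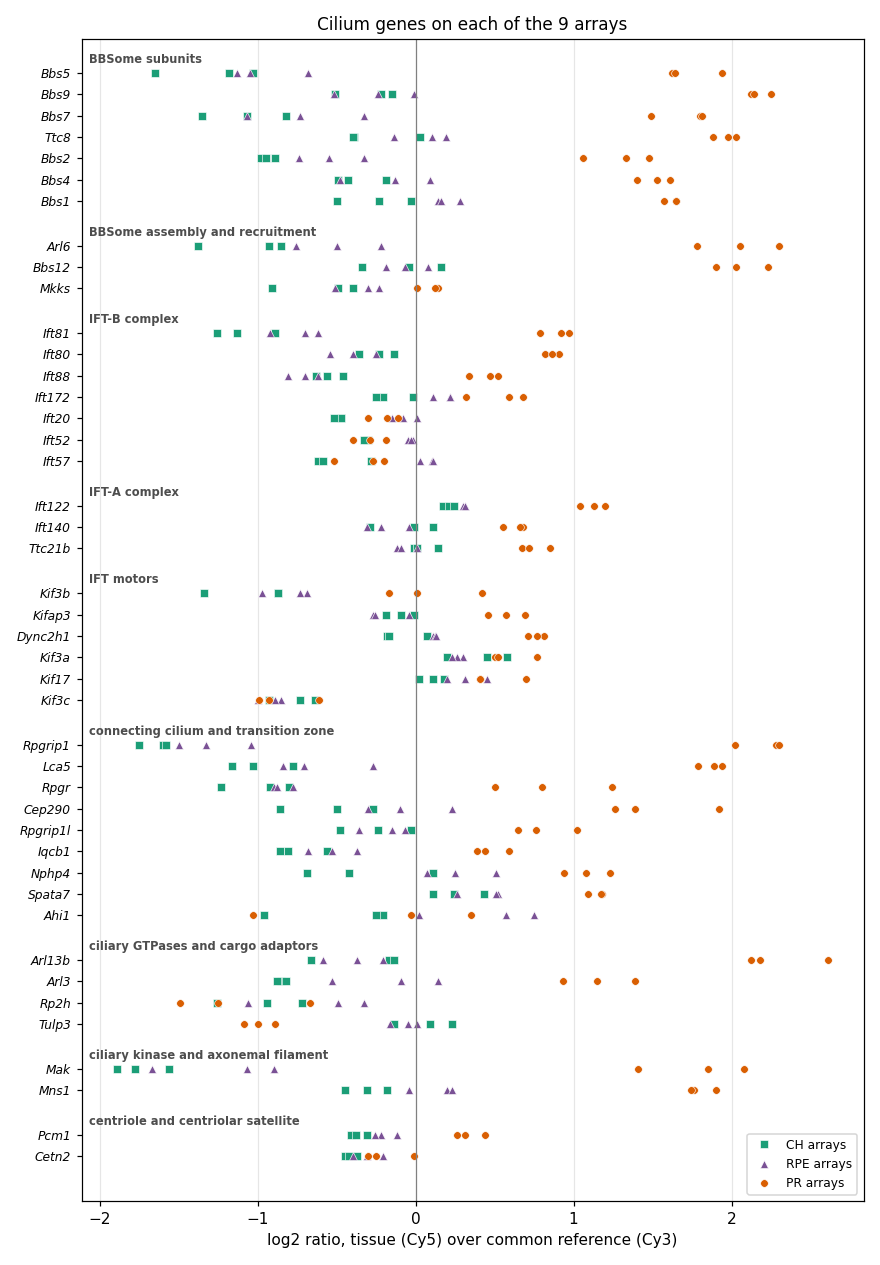
Log2 ratio of tissue (Cy5) over common reference (Cy3) of the 43 cilium genes at their brightest probe, with 1 point per array for the 3 CH, 3 RPE and 3 PR arrays, grouped by role. The PR points of the BBSome subunits lie apart from all other points, while those of Ift20, Kif3c, Ahi1 and Rp2h lie among them.

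The BBSome subunits moved together. All 7 listed subunits (Bbs1, Bbs2, Bbs4, Bbs5, Bbs7, Bbs9 and Ttc8) were called higher in the PR, against 5.19% over all genes. The log2 differences of the 7 subunits lay between 1.43 and 2.69, with a median of 1.91. Bbs5, a subunit that binds phosphoinositides, had log2 ratios of -1.65, -1.18 and -1.03 in the CH, -0.68, -1.13 and -1.05 in the RPE and 1.94, 1.62 and 1.64 in the PR. The PR arrays were all above the others, by a difference of 2.69 ± 0.18 (SE, n = 3 per tissue) to the RPE (limma, adjusted p = 1.1e-06), an FC of 6.45.
For Bbs9, a scaffold subunit, the CH arrays gave -0.51, -0.22 and -0.15, the RPE arrays -0.01, -0.52 and -0.24 and the PR arrays 2.12, 2.14 and 2.25. These CH and RPE arrays overlapped and the PR arrays stood 2.42 ± 0.14 above the RPE (limma, adjusted p = 4.68e-07).
Bbs7 had -1.35, -1.07 and -0.82 in the CH, -0.33, -1.07 and -0.73 in the RPE and 1.80, 1.49 and 1.81 in the PR. Its difference to the RPE was 2.41 ± 0.20 (limma, adjusted p = 4.56e-06), with RPE 1 the highest array outside the PR. Bbs1, the subunit that binds Arl6, had the lowest difference of the 7, 1.43 ± 0.12, an FC of 2.69. Its second probe, with a difference of 0.91, was not called.

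Arl6 is the small GTPase that recruits the BBSome to membranes. Its ratios were -1.38, -0.93 and -0.85 in the CH, -0.22, -0.76 and -0.50 in the RPE and 2.30, 1.78 and 2.05 in the PR. The tissues did not overlap, and the PR was 2.54 ± 0.19 above the RPE (limma, adjusted p = 2.52e-06), an FC of 5.8. Of the chaperonin-like proteins that help to assemble the BBSome, Bbs12 was called, with a difference of 2.11, and Mkks was not, with a difference of 0.44 and an adjusted p-value of 0.0257 in limma. Together, 9 of the 10 listed genes of the BBSome and its assembly and recruitment were called, against 5.19% over all genes.

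The IFT genes had smaller differences. Of the 16 IFT genes, 1 was called, a share near the 5.19% over all genes, and their median log2 difference was 0.70, against 2.01 for the 10 BBSome genes. The called gene was Ift81, a tubulin-binding subunit of IFT-B, with ratios of -0.89, -1.26 and -1.13 in the CH, -0.62, -0.92 and -0.70 in the RPE and 0.79, 0.92 and 0.97 in the PR and a difference of 1.64 ± 0.12. Ift80 (FC 2.4) and Ift88 (FC 2.23), a core subunit of the complex, passed the p-value threshold below the FC threshold. In contrast, Ift20, Ift52 and Ift57 of the same complex had differences of -0.13, -0.26 and -0.41, and Ift172 had 0.35. For Ift57 the RPE arrays (0.10, 0.03 and 0.11) were above the PR arrays (-0.27, -0.52 and -0.20), and this difference had an adjusted p-value of 0.0175 in limma. Ift52 passed at an adjusted p-value below 0.05 as well, while Ift20 overlapped between the tissues.

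The 3 IFT-A genes were alike: Ift122 (0.82), Ift140 (0.82) and Ttc21b (0.81) were all higher in the PR at an adjusted p-value below 0.01 and below the FC threshold. None of the 6 motor genes was called, with 5.19% called higher in the PR than the RPE over all genes. Kif3b, a chain of heterotrimeric kinesin-2, had a difference of 0.88, its accessory subunit Kifap3 had 0.76 and Dync2h1, the heavy chain of the IFT dynein, had 0.64, each with an adjusted p-value below 0.01 in limma. The other kinesin-2 chains had lower values, with 0.34 for Kif3a, 0.18 for Kif17 and 0.07 for Kif3c, a neuronal partner of Kif3a. For Kif17 and Kif3c the PR and RPE arrays overlapped.

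The genes of the connecting cilium and transition zone had the widest range, from -0.68 to 3.49. Of these 9 genes, 4 were called higher in the PR than the RPE, against 5.19% over all genes. Rpgrip1, which anchors the GTPase regulator RPGR in the connecting cilium, had the largest difference of the 43 genes. Its ratios were -1.75, -1.60 and -1.58 in the CH, -1.04, -1.50 and -1.33 in the RPE and 2.28, 2.30 and 2.02 in the PR. The PR was 3.49 ± 0.13 above the RPE (limma, adjusted p = 3.22e-08), an FC of 11.2, and its probe lies at chr14:52780541-52780600 on mm9. Its paralogue Rpgrip1l, a transition zone gene of many ciliated cells, had an FC of 2.01. Rpgr itself differed by 1.70, with 1.24, 0.80 and 0.50 on the PR arrays and at most -0.78 on the RPE arrays.
Lca5 encodes lebercilin, a microtubule-associated protein of the connecting cilium. It had -1.16, -1.03 and -0.78 in the CH, -0.27, -0.84 and -0.71 in the RPE and 1.94, 1.89 and 1.79 in the PR. The difference to the RPE was 2.48 ± 0.15 (limma, adjusted p = 6.44e-07). Cep290, which bridges the axoneme and the membrane in the transition zone, differed by 1.58 ± 0.21. Iqcb1, Nphp4 and Spata7 differed by 1.00, 0.80 and 0.72, with adjusted p-values below 0.01 and FCs below the threshold. Ahi1, the Joubert syndrome gene, was the exception: its PR arrays gave -1.03, 0.35 and -0.03 and its RPE arrays 0.75, 0.57 and 0.02, and they overlapped. Its SD in the PR, 0.71, was the highest of the 43 genes, and its difference of -0.68 ± 0.35 had an adjusted p-value of 0.135 in limma.

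**Figure D2:**
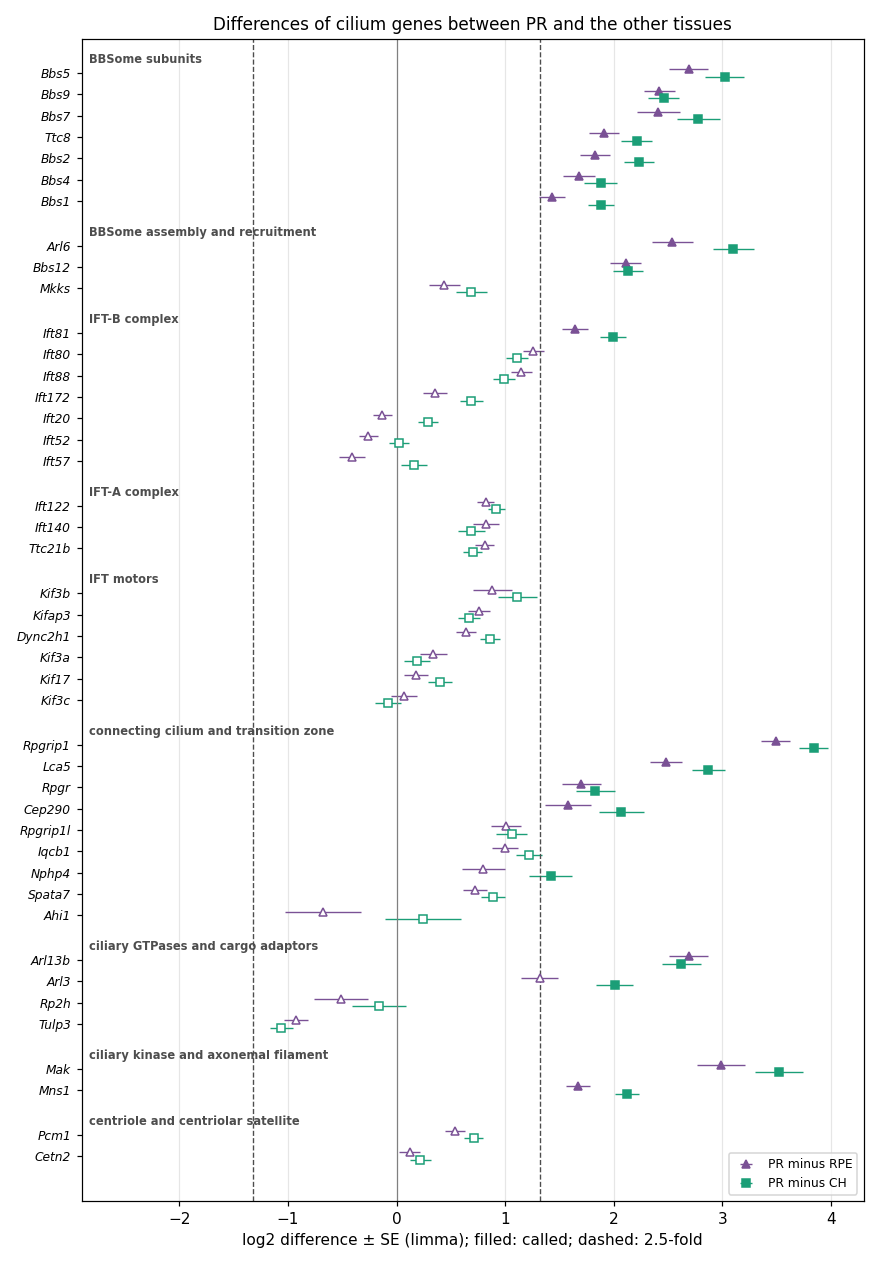
Log2 difference ± SE of each cilium gene between PR and RPE (triangles) and between PR and CH (squares) from the limma fit, with filled symbols for called genes and dashed lines at an FC of 2.5. Rpgrip1 lies farthest to the right in both comparisons, and Tulp3 lies farthest to the left.

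Among the ciliary GTPases and cargo adaptors the genes moved in opposite directions. Arl13b, a GTPase of the ciliary membrane that activates Arl3, had -0.66, -0.17 and -0.14 in the CH, -0.21, -0.59 and -0.37 in the RPE and 2.61, 2.18 and 2.12 in the PR. All PR arrays were above the others, by 2.69 ± 0.18 to the RPE (limma, adjusted p = 1.15e-06), an FC of 6.46. Arl3, which releases lipidated cargo in the cilium, had a difference of 1.32 ± 0.17 and an FC of 2.49, just under the threshold, and was called without RPE 1, without RPE 3 or without PR 2. Rp2h (Rp2 in RefSeq), which turns Arl3 off, overlapped between the tissues, with a difference of -0.51 and an adjusted p-value of 0.116 in limma.
Tulp3, an adaptor that brings receptors into cilia together with IFT-A, was lower in the PR. It had 0.23, 0.09 and -0.14 in the CH and 0.01, -0.16 and -0.05 in the RPE, while its PR arrays had a mean of -0.99 ± 0.10 (SD, n = 3) and lay from -1.09 to -0.89. The PR arrays were all below the others, and the level was 1.9-fold higher in the RPE than the PR (limma, adjusted p = 8.04e-05) and 2.08-fold higher in the CH, both under the FC threshold.

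Mak, a kinase that limits the length of the photoreceptor axoneme, had the second-largest difference. Its ratios were -1.56, -1.78 and -1.89 in the CH, -0.90, -1.67 and -1.07 in the RPE and 1.41, 2.08 and 1.85 in the PR. The PR was 2.99 ± 0.22 above the RPE (limma, adjusted p = 2.07e-06), an FC of 7.96. Mns1, a filament protein inside axonemal microtubules that is best known from motile cilia, was called with a difference of 1.67. The centriolar satellite gene Pcm1 had a difference of 0.54 with an adjusted p-value of 0.00059 in limma, and the centriole gene Cetn2 had 0.12 and overlapped.

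The second comparison, of the PR with the CH, shares the PR arrays with the first, so that its values are set side by side and are no independent support. Of the 43 genes, 19 (44.2%) were called higher in the PR than the CH and 0 lower, with 6.01% and 12.7% over all genes. The 17 genes called against the RPE were all among them, with Arl3 and Nphp4 in addition. The median log2 difference was 1.11, against 0.05 over all genes. At an adjusted p-value below 0.05, 35 genes were higher and 1 (Tulp3) was lower, with 27.5% and 26.1% over all genes. The differences to the CH were 3.84 for Rpgrip1, 3.52 for Mak, 3.10 for Arl6 and 3.02 for Bbs5. Arl3 was 2.01 ± 0.17 higher in the PR than the CH (limma, adjusted p = 4.74e-06). Nphp4, a transition zone gene, was 1.42 ± 0.20 higher (limma, adjusted p = 0.000158). Without CH 1, which was its lowest array, the difference of Nphp4 was 1.24 and it was no longer called.

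The third comparison asked whether these genes differ between the RPE and the CH, both of which lack outer segments. Of the 43 genes, 0 were called higher and 0 lower in limma, with 0.179% and 1.74% over all genes. At an adjusted p-value below 0.05, 6 of 43 (14%) were higher in the RPE and 0 lower, with 10.3% and 12.2% over all genes, so that the higher share was near that of all genes. At an unadjusted p-value below 0.05, 17 (39.5%) were higher and 0 lower, with 16.7% and 16.8% over all genes. The 6 genes were Bbs1, Ift20, Ift52, Ift57, Arl3 and Mns1. Ift57 had -0.62, -0.59 and -0.28 in the CH and 0.10, 0.03 and 0.11 in the RPE, a difference of 0.58 ± 0.12 (limma, adjusted p = 0.00839). The arrays of Ift20, which links the Golgi with the cilium, did not overlap either, with a difference of 0.41 ± 0.09 (limma, adjusted p = 0.00967). The median difference of the 43 genes was 0.23, with 34 of 43 (79.1%) above 0, against 0.03 and 55.1% over all genes. With the arrays centred on their median in place of loess, the median difference of the 43 genes fell to 0.02. RPE 1 was the highest of the 6 CH and RPE arrays for 22 of the 43 genes, and CH 1 was the lowest for 20. The median log2 ratio of the 11 rod markers was 0.64 on RPE 1, -0.28 and -0.12 on the other RPE arrays and -1.07, -0.44 and -0.04 on the CH arrays. The part of photoreceptor RNA in the RPE and CH samples in these differences was not tested. Without RPE 1 the median difference was 0.22.

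**Figure D3:**
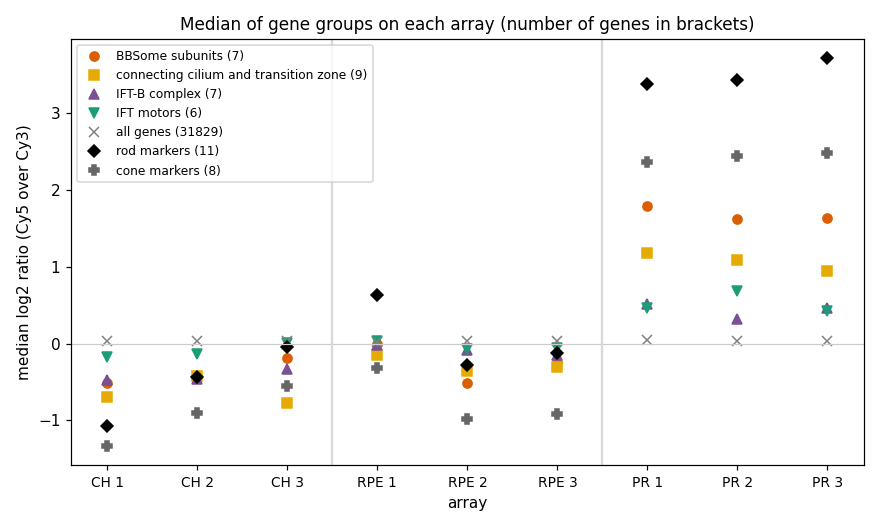
Median log2 ratio (Cy5 over Cy3) of 4 groups of cilium genes, of all genes and of the rod and cone markers on each of the 9 arrays. On the PR arrays the BBSome subunits lie between 1.62 and 1.80 and the IFT-B genes between 0.32 and 0.52, and among the other arrays RPE 1 has the highest rod marker median, 0.64.

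The values within a slide are given as a description, since these arrays were also among those that the calls rest on. On slide 3, which held 1 array of each tissue, the 17 called genes were all above an FC of 2.5 between PR 2 and RPE 2, with a lowest log2 difference of 1.51. They were also all above it between PR 2 and CH 2, where the lowest was 1.72. The median over the 43 genes was 1.06 for PR 2 minus RPE 2 and 1.00 for PR 2 minus CH 2. For RPE minus CH it was 0.14 on slide 3 and 0.29 on slide 2.

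For 15 of the 43 genes the array held several probes. In 6 of them (Arl13b, Arl6, Bbs5, Bbs7, Rpgr and Rpgrip1) every probe was called higher in the PR than the RPE, in 7 no probe was, and in Bbs1 and Lca5 some were. The second probe of Bbs1 gave 0.91 in place of 1.43, so that with the median of its probes Bbs1 differed by 1.17 and was not called. The 3 probes of Lca5 gave 2.48, 2.03 and 0.73, and the lowest of these was well above background on 1 of 3 CH and 1 of 3 RPE arrays. Both probes of Arl13b were called, with 2.69 and 1.57. The probes of Kif3a had opposite signs, 0.34 and -0.25, and neither was called. The probes of Rpgrip1 gave 3.49 and 3.59 and overlap each other in position, so that they are not separate measurements of the transcript.

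**Figure D4:**
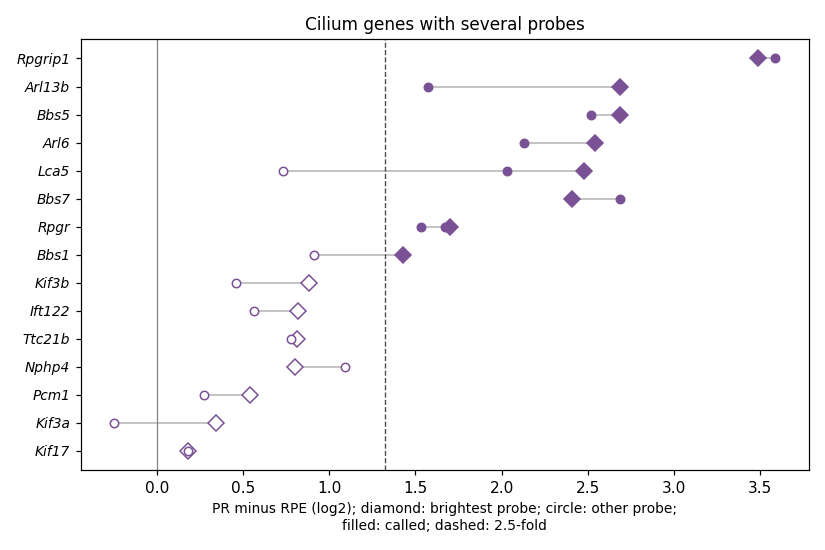
Log2 difference PR minus RPE of each probe of the 15 cilium genes with several probes, with diamonds for the brightest probe, circles for the others, filled symbols for called probes and a dashed line at an FC of 2.5. The probes of Lca5 spread from 0.73 to 2.48 and those of Arl13b from 1.57 to 2.69, while those of Rpgr lie between 1.53 and 1.70.

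Genes of the same pathways that are not among the 43 were taken from lists of related genes. Over all genes, 5.19% were called higher in the PR than the RPE and 10.9% lower. Of 14 other IFT genes, 4 were called higher in the PR than the RPE and 0 lower, with a median log2 difference of 0.91. The largest differences were those of Ttc30a1 (1.93), Traf3ip1 (1.51) and Ttc26 (1.47), all genes of IFT-B, and the value of Ttc30a1 is uncertain because near-identical copies of this gene could share its probe. The remaining called gene was one of these copies, Ttc30a2 (1.33). Of 5 other IFT dynein genes, 1 was called, the intermediate chain Wdr60 (1.46). Of 4 other BBS genes, 0 were called in either direction by limma. At an adjusted p-value below 0.05, 3 of these were higher and 1 lower, with 25.1% and 25.2% over all genes. Of 19 other transition zone genes, 3 were called higher, Cep164 (2.07), a distal appendage gene, Mks1 (1.40) and Tmem107 (1.38). The median of these genes was 0.44. There were 2 called lower, among them Tctn1 (-2.59), with 5.19% called higher and 10.9% lower over all genes.

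The 13 other genes of the photoreceptor cilium had a median difference of 2.07 between PR and RPE. Of these, 8 were called higher in the PR and 0 lower, against 5.19% and 10.9% over all genes. Rp1, a doublecortin-domain protein of the photoreceptor axoneme whose probe was saturated on 1 array, differed by 4.95, Pcare (BC027072 in the files) by 3.31 and Rp1l1 by 2.97. Tulp1, a photoreceptor paralogue of Tulp3 that was chosen after its values were seen, differed by 2.14. Of 10 other centrosome genes, 1 was called higher, beside 5.19% over all genes. The called gene was Ccp110 (6330503K22Rik in the files), with a difference of 1.78.

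There were 4 comparison lists (motile cilia, cytoplasmic motors, hedgehog signalling and RFX factors), with 6 to 22 genes each. At most 1 gene per list was called higher in the PR than the RPE, with 5.19% over all genes. The 22 motile cilium genes had a median of 0.00. Of these genes, 1 was called higher (4.55%) and 2 lower, near the 5.19% and 10.9% over all genes. These were Foxj1 (1.32), a transcription factor of motile cilia, and the radial spoke genes Rsph9 (-2.96) and Rsph1, whose probe was not well above background on any PR array. Of the 22 probes, 9 were not well above background on any PR array. Among the 22, 7 were above it on at most 1 of the 9 arrays. The share and the median therefore rest in part on probes near background. Of 9 cytoplasmic transport motors, 0 were called against the RPE by limma, with a median of 0.43, beside 0.49 for the 6 IFT motors. At an adjusted p-value below 0.05, 5 of the 9 were higher and 1 lower, with 25.1% and 25.2% over all genes. Unadjusted, 6 were higher and 1 lower, with 27.9% and 27.4% over all genes. Of 8 genes of ciliary hedgehog signalling, 0 were called higher by limma, also unadjusted, and 2 lower, with a median of -0.90 and 10.9% called lower over all genes. The lower ones were the transcription factors Gli1 (-3.54) and Gli2 (-1.65). Of 6 genes of the RFX family, 0 were called, and 5 were higher in the PR at an adjusted p-value below 0.05 in limma, against 25.1% over all genes, with a median of 0.60. Among the 39 genes with a promoter, 8 of 16 with an X-box match and 8 of 23 without one were called higher in the PR than the RPE. Their median differences were 1.29 and 0.88, and their ranges overlapped, from -0.68 to 2.69 with a match and from -0.93 to 3.49 without.

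**Figure D5:**
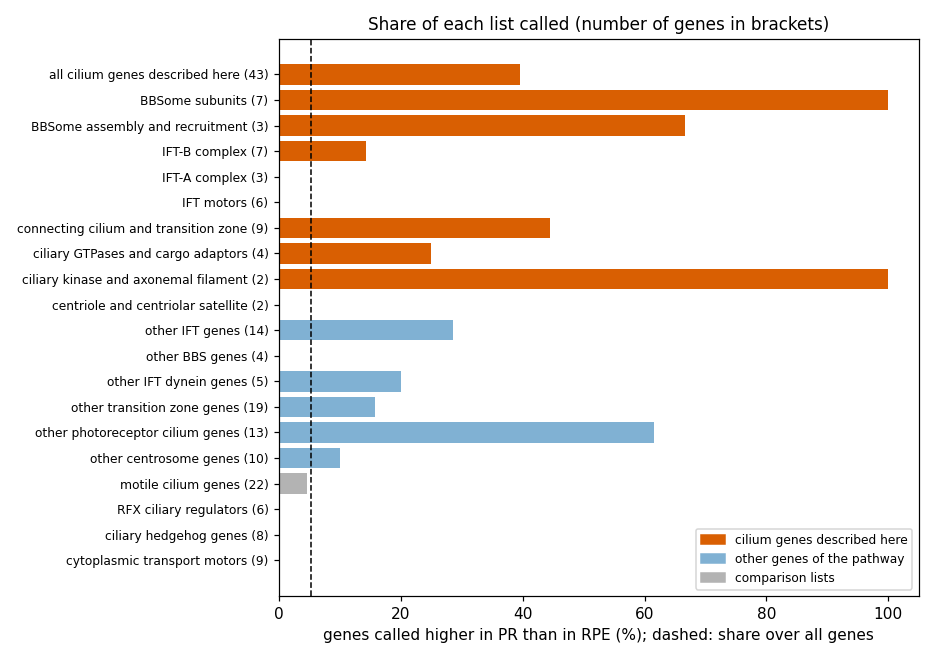
Share of the genes of each list that were called higher in PR than in RPE, in percent, with the number of genes in brackets and a dashed line at the 5.19% over all genes. The bars of the BBSome subunits and of the pair of ciliary kinase and axonemal filament genes reach 100%, and the IFT-A genes and the IFT motors have none.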

How the data were processed

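The 9 arrays, 3 each of CH, RPE and PR, were Agilent arrays of the mouse genome with a sample and a reference channel. Per the labels, the arrays were extracted with Agilent Feature Extraction 9.5.3.1 and analysed in R 2.14.0 with limma. The deposited output gives, for every spot, mean signals and local background medians, which are unnormalized intensity values, and the deposited log ratio of the software is a log10 value of Cy5 over Cy3. The table that the authors deposited for the whole series is on a log2 scale and follows the Cy5 channel (column medians between 9.38 and 9.55, r = 0.998 with the log2 Cy5 signal computed here), whose normalization and scale are not stated. The last 2 were used as alternatives only.

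Normexp with an offset of 50 corrected the background, and log2 Cy5 over Cy3 was normalized within arrays by loess, with control and outlier-marked spots at weight 0. Marked spots (between 228 and 586 per array) were left out and repeated spots averaged, which gave 39429 probes. A mean per tissue was fitted to all 9 arrays with limma 3.58.1 in R 4.3.3, and p-values were B-H adjusted over all probes. The thresholds (FC 2.5, adjusted p 0.01) are those of the study. Each gene is given at its brightest probe, by the mean log2 Cy5 signal after loess and Aquantile. Probe positions are on mm9 per the file headers, and exons were not assigned. RefSeq (GRCm38.p6) gave names for all 43 genes and promoters for 39. The number of arrays limits the precision. The fit was tested on simulated data. Summaries and figures were made with Python 3.11.15.

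The rule for the 43 genes is a list of names without values, but this list and the others were drawn up with earlier results of these data known. Values on every array are given for the 8 genes with the largest called difference between PR and RPE. Of the other pathway lists, called genes among the 3 largest differences per direction are named, except that a result on these lists is not reported here. Ift57, Ift81, Rpgr, Ahi1 and Tulp3 were given by array after their values were seen. Same-numbered arrays deviated from their tissue means with correlations between -0.08 and 0.29, and differently numbered arrays with correlations between -0.31 and 0.25. The arrays numbered 2 also share a slide, so that these values cannot show whether the numbers are pairs. In the main fit the numbers were not taken as pairs. Marker lists were fixed for rods, cones, RPE, pigment cells, endothelium, fibroblasts, Müller glia, inner retina, red blood cells, skeletal muscle and immune cells. In the PR against the RPE, they gave 0 genes called higher and 7 of 8 (endothelium), 6 of 7 (fibroblasts), 4 of 7 (Müller glia), 1 of 4 (red blood cells), 1 of 5 (skeletal muscle) and 3 of 6 (immune cells) called lower, beside the lists given in the text.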

Additional observations from a re-analysis of the deposited data

How the results depend on the processing

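The counts of genes called at the thresholds of the study were within 1.5 times of the main counts under the background, normalization, reference, block, spot, probe and variance alternatives and without each array. Other thresholds moved the counts. At an FC above 1.5, 30 genes were higher in the PR than the RPE and 1 (Tulp3) lower, and against the CH 33 were higher and 1 lower. At an FC above 2, 1 gene was lower in the PR than the CH. The shares over all genes were not counted at these 2 FCs, so that the counts cannot be set against them. At an adjusted p-value below 0.05 without an FC, 34 were higher and 3 lower against the RPE, with 25.1% and 25.2% over all genes. Against the CH, 35 were higher and 1 lower, with 27.5% and 26.1% over all genes. In the RPE, 6 were higher than in the CH, with 10.3% over all genes.

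The median difference of the 43 genes between PR and RPE was 1.20 with median centring and 1.30 with the Feature Extraction log ratio. Between PR and CH it was 1.42 with that log ratio, 1.23 with the Cy5 signal alone and 1.25 with the series table. Between RPE and CH it was 0.02 with median centring. The cause was not tested. With the Feature Extraction log ratio, 3573 probes were called higher and 4240 lower between PR and RPE, against 2039 and 4062 in the main fit, and 4367 and 4964 between PR and CH, against 2496 and 4751.

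With the replicate block, 17 genes were called higher in the PR than the RPE and 19 than the CH, as without it, and no call of a cilium gene changed. No direction of a called gene was reversed. Without each array in turn, the counts for PR against RPE were between 17 and 19 and the median differences between 0.92 and 1.07. At the thresholds of the study, the calls that changed were those of Arl3, Ift80, Ift88, Rpgrip1l and Bbs1 against the RPE and of Iqcb1, Kif3b, Rpgrip1l and Nphp4 against the CH. Bbs1 and Nphp4 lost theirs, under the settings given in the text, and the others gained one. Cy5 saturation touched no cilium gene, and 8 of the 11 rod markers were saturated on at least 1 array.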

Other observations

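Between RPE and CH, the rod markers, the cilium genes and the genes of the photoreceptor cilium were set side by side as values only. The median log2 difference was 0.55 for the 11 rod markers, 0.30 for the 8 cone markers, 0.32 for the 13 other genes of the photoreceptor cilium and 0.33 for the 7 BBSome subunits. It was 0.34 for the 7 IFT-B genes, 0.35 for the 9 connecting cilium and transition zone genes and 0.24 for the 14 other IFT genes. For the 3 IFT-A genes it was -0.11, for the 6 IFT motors 0.06, for the 22 motile cilium genes -0.01 and over all genes 0.03. Between PR and RPE, the medians of the IFT-B and IFT-A genes were 0.35 and 0.82. Among the 19 genes called higher in the PR than the CH, the difference between RPE and CH lay between -0.07 (Arl13b) and 0.69 (Arl3). None of these genes was called between RPE and CH, and the cause of the differences was not tested.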
